A study of Rattus norvegicus with 119 samples.

Results

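The genes described here encode calcium-dependent protein kinases and the calcium-dependent phosphatase calcineurin, measured in rat hippocampus. A probe set (the group of array probes that reports 1 transcript) was a member when its only gene symbol was Prkca, Prkcb, Camk2a, Camk2b, Camk2d, Camk4, Ppp3ca, Ppp3cb or Ppp3r1. This gave 10 of the 29214 probe sets, for 9 of the 14506 genes named by a probe set with 1 symbol, since Ppp3r1 had 2 probe sets and every other gene had 1. The rule itself used no measured value.

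The study measured RNA on 1 array per animal in rats of the Fischer (40 animals), Long Evans (40) and Sprague Dawley (39) strains. Exposed animals of each strain and sex ate chow with lead acetate, 250 or 750 ppm, either perinatally or postnatally, and controls received chow with 0 ppm. In the perinatal groups the dams ate lead chow from 10 days before breeding until the pups were weaned. In the postnatal groups exposure ran from birth to postnatal day 45. All animals ended on control chow, and the hippocampus was collected on postnatal day 55. There were 30 groups of 4 animals, with 3 in the male controls of Sprague Dawley. Each exposed group was compared with the controls of its own strain and sex. The labels name no litter, so p-values measure only the spread between these animals, littermates or not.

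Calcium that enters a neuron through NMDA receptors and calcium channels is bound by calmodulin, which activates the CaM kinases and calcineurin, while conventional protein kinase C isoforms bind calcium themselves together with diacylglycerol. In hippocampal synapses CaMKII and protein kinase C take part in long-term potentiation and calcineurin in long-term depression. Lead can occupy calcium sites of calmodulin and of protein kinase C, and these enzymes are studied in lead neurotoxicity.

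In the rat genome build GRCr8 the protein kinase C genes span chr10:93388991-93787617 (Prkca) and chr1:186263397-186594743 (Prkcb). The CaMKII genes span chr18:56648779-56711505 (Camk2a), chr14:85059166-85148121 (Camk2b) and chr2:217698324-217961898 (Camk2d), and Camk4 spans chr18:24857152-25076054. The calcineurin genes span chr2:227839058-228113560 (Ppp3ca), chr15:3809182-3854204 (Ppp3cb) and chr14:95758333-95808015 (Ppp3r1). The labels and files used here do not place the probes within exons.

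The promoters of Camk2a and Camk2d are shown because these CaMKII genes varied in opposite directions across arrays. Each is a 300-base RefSeq stretch around the annotated start of transcription, in GRCr8, read 5′ to 3′ on the plus strand of the genome. Capitals mark TGACG, the core of the cyclic AMP response element, and GGGCGG, the Sp1 box, on either strand (CGTCA and CCGCCC are their reverse complements).
Camk2a, chr18:56648930-56649229: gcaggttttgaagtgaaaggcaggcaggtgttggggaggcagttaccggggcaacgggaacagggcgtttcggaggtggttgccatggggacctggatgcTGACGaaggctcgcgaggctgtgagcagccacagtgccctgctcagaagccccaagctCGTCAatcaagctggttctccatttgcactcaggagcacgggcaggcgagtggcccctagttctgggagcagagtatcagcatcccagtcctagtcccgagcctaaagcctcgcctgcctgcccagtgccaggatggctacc
Camk2d, chr2:217698301-217698600: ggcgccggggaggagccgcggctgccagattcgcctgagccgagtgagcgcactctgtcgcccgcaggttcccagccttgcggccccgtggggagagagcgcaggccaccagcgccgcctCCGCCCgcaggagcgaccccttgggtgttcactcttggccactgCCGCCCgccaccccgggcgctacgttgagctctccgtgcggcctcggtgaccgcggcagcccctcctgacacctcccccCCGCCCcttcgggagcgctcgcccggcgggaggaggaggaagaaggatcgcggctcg
The Camk2a promoter held 2 TGACG motifs and 0 Sp1 boxes, against 0 TGACG motifs and 3 Sp1 boxes in the Camk2d promoter. TGACG stands in 21.2% and the Sp1 box in 33.1% of the 33469 rat promoters of this length. CpG pairs numbered 12 in the Camk2a stretch and 36 in that of Camk2d. Camk2b also varied against Camk2d across arrays (r = -0.498, against -0.443 for Camk2a). Its promoter, not printed here, held 0 TGACG motifs, 6 Sp1 boxes and 59 CpG pairs. In these counts Camk2b was thus on the side of Camk2d, although it varied with Camk2a. Any part of the motifs in the opposite variation was not tested. Such matches are letters in a window and say nothing of binding.

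Values are log2 intensities, on which a difference of 1 is a 2-fold change. Levels of different probe sets cannot be compared with each other, so each gene was followed across animals. Of the members, 9 probe sets lay above the array median in every array. The second Ppp3r1 probe set (10908218, mean 6.37) lay below it in every array, and no detection calls were used here to show whether it stood above background. Array medians lay between 7.36 and 7.57. In 8 arrays (3 Long Evans, 5 Sprague Dawley) X-linked genes went against the sex label, and calls lost without them are given where they stand. Within each group the animals were also parted by the number in their label into lower and upper numbers. This parting was kept as a block in the main fits, because earlier results of these data showed that it separated Fischer arrays. Fits without it were run as alternatives. Group and run of numbers cannot be told apart, because each group had its own run, and neither can strain and any processing by strain.

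**Figure D1:**
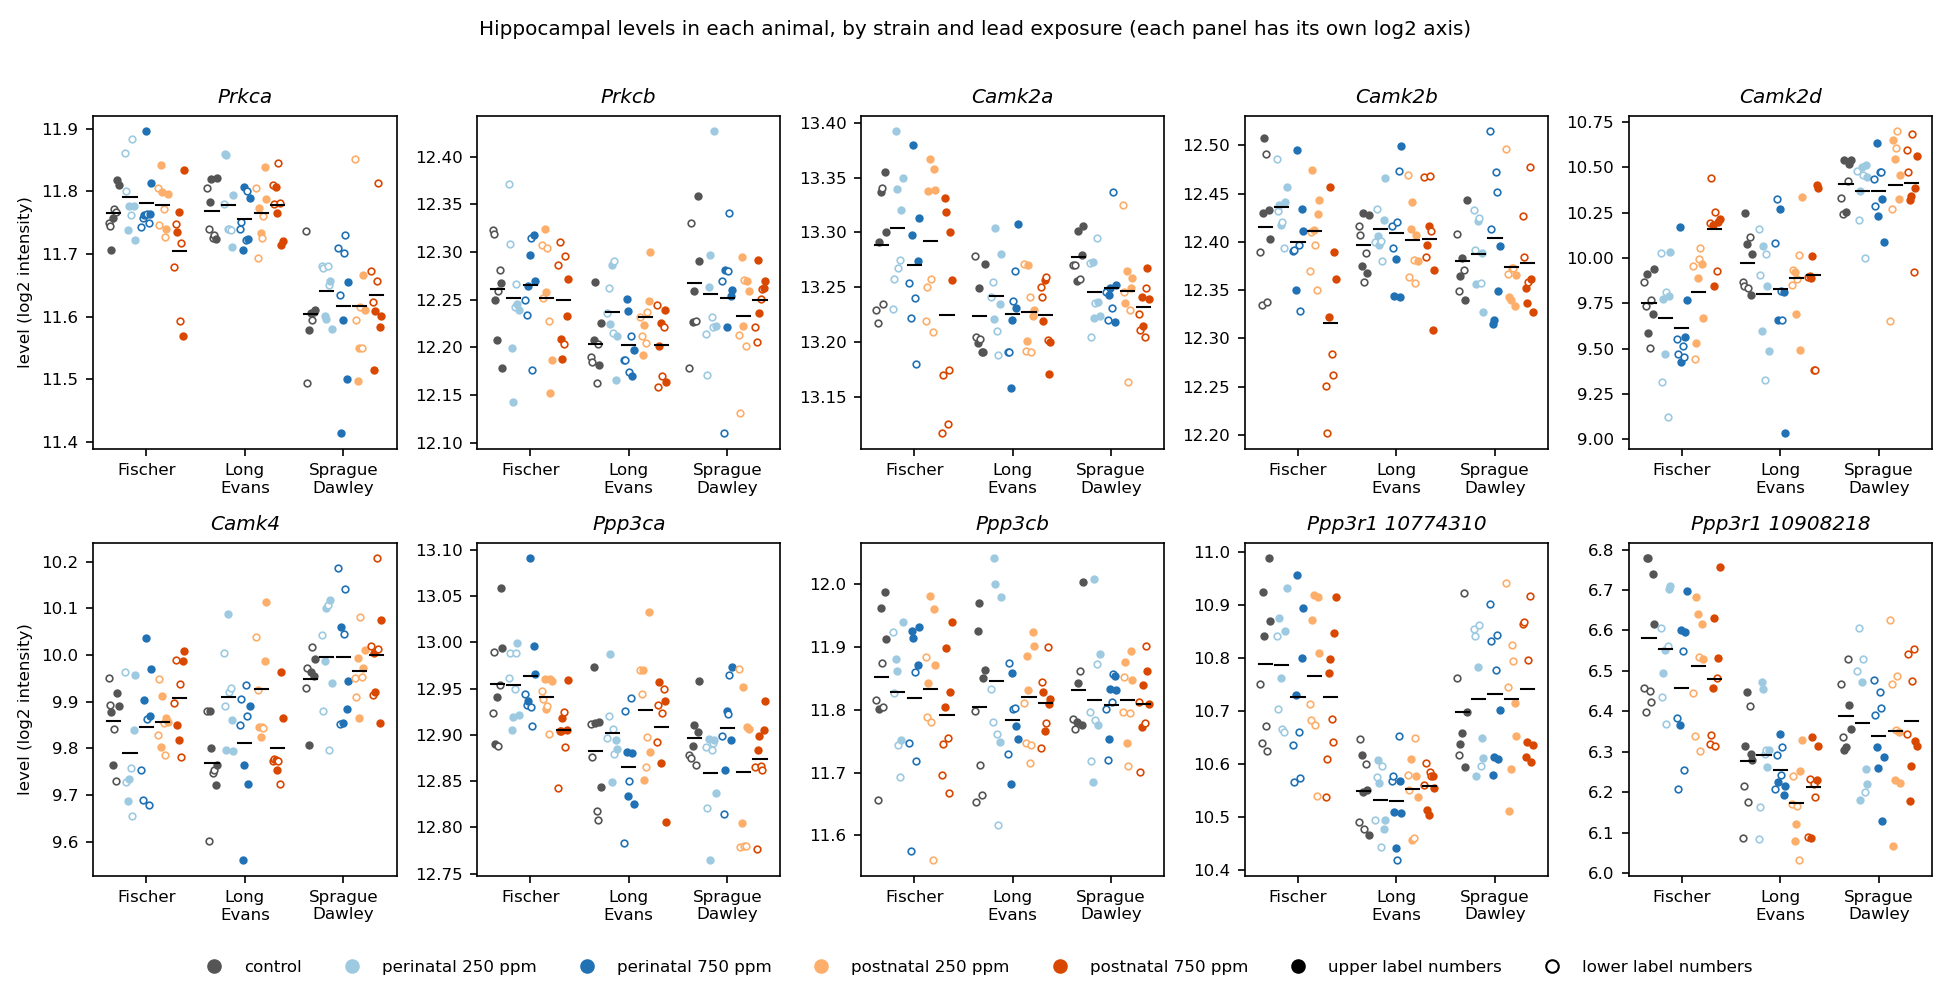
Level of each member probe set (log2 intensity, vertical axis, a separate scale in each panel) in every animal, by strain and exposure with controls at the left of each strain. Points are animals, filled for upper and open for lower label numbers, and lines are group means over both sexes. Camk2d stands higher in Sprague Dawley than in the other strains, and Ppp3r1 is lowest in Long Evans.

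The members differed in how much animals of 1 group varied. Camk2a, the alpha subunit of CaMKII, had a residual SD of 0.0344 (log2, after strain, sex, treatment and label-number set), at the 0.164th percentile of all probe sets. Prkcb at 0.0481, Camk2b at 0.0461 and Ppp3ca at 0.0504 were also far below the median of all probe sets, 0.128. Camk2d, the delta subunit of CaMKII, stood at the other end with 0.267, the 94.2nd percentile. Its group means spanned 0.95, between 9.57 in Fischer males after perinatal 750 ppm and 10.52 in Sprague Dawley males after postnatal 250 ppm. The group means of Prkcb, in contrast, spanned 0.10. Mean levels were 13.25 for Camk2a, 12.91 for Ppp3ca, 12.40 for Camk2b, 12.24 for Prkcb and 10.02 for Camk2d. The highest value on any array was 14.18. The part of level in these spreads was not tested.

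Lead exposure called no member in any strain, sex, period or dose. The limma test, with Benjamini-Hochberg adjustment over all probe sets and a threshold of adjusted p under 0.05, called 0 of the 10 probe sets in each of the 24 contrasts. Over all probe sets it called 0.00471% in the Fischer contrasts, 0.0368% in Long Evans and 0.0111% in Sprague Dawley (8 contrasts each). At an unadjusted p under 0.05 there were 12 of 240 member tests (5%), against 5.41% over all probe sets. By strain these were 9 of 80 in Fischer (11.2%), 2 of 80 in Long Evans (2.5%) and 1 of 80 in Sprague Dawley (1.25%). The shares over all probe sets were 6.12%, 6.13% and 3.98% in the same order. Within a strain and sex the same control animals served all 4 contrasts, which makes these counts dependent on each other. With the sexes pooled, a comparison added after the values were seen, limma called 0 of 10 in each of 12 contrasts (0.0622% of all probe sets). There 6 of 120 member tests (5%) had an unadjusted p under 0.05, against 6.02% over all probe sets.

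Averaged over the 8 exposed groups of a strain, all 30 member effects lay between -0.12 and 0.09. limma called 0 of 10 members in Fischer (0% of all probe sets), 0 of 10 in Long Evans (0.195%) and 0 of 10 in Sprague Dawley (0.0137%). An unadjusted p under 0.05 was reached in 1 of the 30 tests (3.33%), against 5.68% over all probe sets. For the kinases and catalytic subunits with little spread the intervals were narrow. The mean effect on Camk2a was -0.02 in Fischer (95% confidence interval -0.05 to 0.02), 0.01 in Long Evans (-0.03 to 0.05) and -0.03 in Sprague Dawley (-0.07 to 0.01). For Prkca, the alpha isoform of protein kinase C, it was -0.00 (-0.05 to 0.05), 0.00 (-0.05 to 0.05) and 0.02 (-0.06 to 0.09) in the same order of strains. For Ppp3ca, the main catalytic subunit of calcineurin in brain, it was -0.01 (-0.06 to 0.03), 0.02 (-0.03 to 0.07) and -0.02 (-0.07 to 0.03). Camk2d had the widest intervals, from -0.13 to 0.26 in Fischer, -0.35 to 0.12 in Long Evans and -0.22 to 0.17 in Sprague Dawley.

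**Figure D2:**
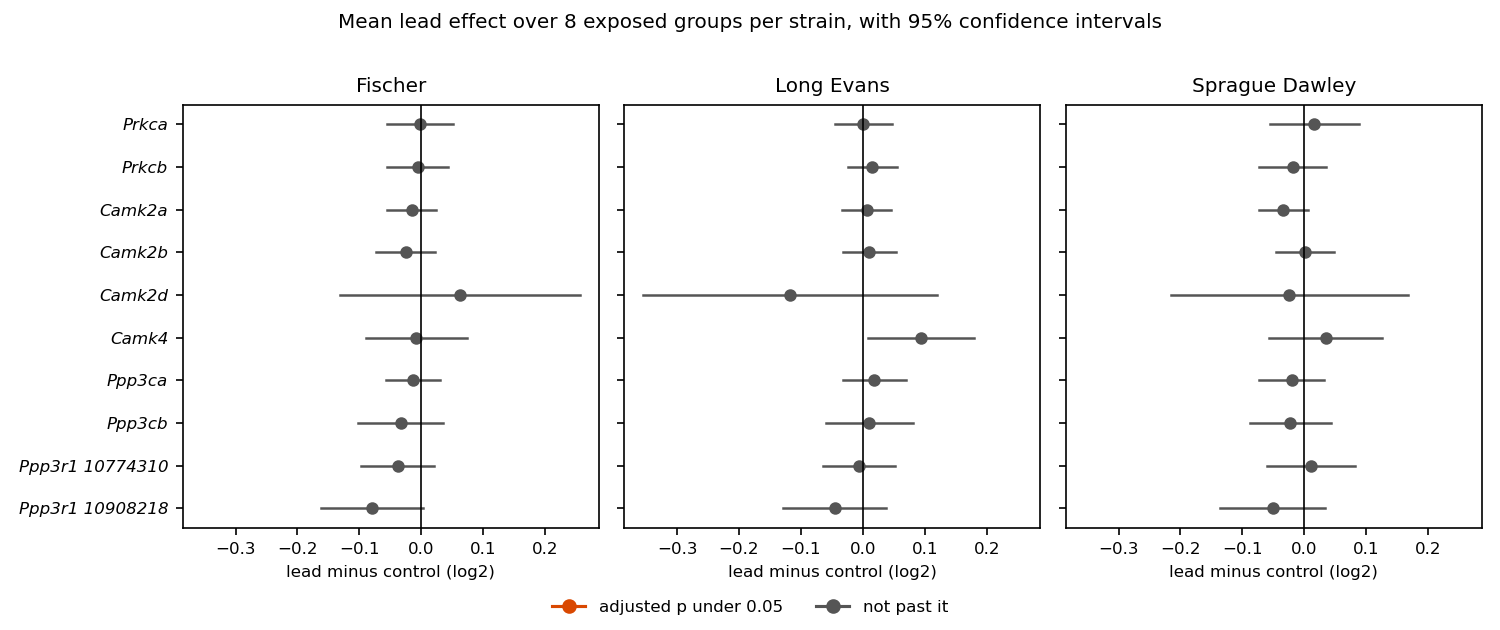
Mean lead effect per strain (lead minus control, log2, horizontal axis) for the 10 member probe sets, with 95% confidence intervals. Each estimate lies between -0.12 and 0.09 and none passed the threshold.

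The largest single lead differences belonged to Camk2d in Fischer rats after postnatal exposure to 750 ppm, and they were not called. In exposed males Camk2d stood at 10.25, 9.93, 10.20 and 10.21, against 9.50, 9.77, 9.69 and 9.94 in control males. In exposed females it stood at 10.19, 10.44, 10.18 and 9.85, against 9.87, 9.74, 9.91 and 9.59 in control females. Of these values only the lowest exposed male and the lowest exposed female fell within the range of their controls. The difference was 0.42 ± 0.17 (SE) in males (adjusted p = 0.497) and 0.39 ± 0.17 in females (adjusted p = 0.577), by limma with n = 4 against 4. With the sexes pooled it was 0.41 ± 0.12 (adjusted p = 0.312, limma). In the same arm Camk2d differed by -0.07 ± 0.15 in Long Evans and by -0.00 ± 0.12 in Sprague Dawley, and the strain difference in this arm was not tested.

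Camk2a and Camk2b, the other CaMKII subunits among the members, lay on the opposite side in that Fischer arm. Camk2b, the beta subunit, ranged from 12.20 to 12.46 (median 12.30) in 8 exposed Fischer animals, against 12.33 to 12.51 (median 12.42) in 8 controls. The pooled difference was -0.10 ± 0.03 (adjusted p = 0.318, limma). Camk2a ranged from 13.12 to 13.33 (median 13.22) in the exposed animals, against 13.22 to 13.36 (median 13.30) in controls, a difference of -0.06 ± 0.02 (adjusted p = 0.517, limma). Both pairs of ranges overlapped. The ranges of dentate gyrus and thalamus markers in the same animals also overlapped, though their group means differed. The mean of 3 dentate gyrus probe sets ranged from 8.12 to 8.45 in the exposed animals, against 8.29 to 8.49 in controls. The mean of the 2 thalamus probe sets measured here ranged from 8.18 to 8.46, against 8.09 to 8.39 in controls. Group means in exposed males and females were 8.26 and 8.26 for dentate gyrus, against 8.37 and 8.38 in control males and females. For thalamus they were 8.38 and 8.31 against 8.22 and 8.28. For CA3 they were 9.02 and 9.06 against 9.08 and 9.11, and for striatum 8.06 and 7.98 against 7.93 and 7.97. Neither the marker differences in this arm nor their part in the Camk2 values was tested. In whole tissue, fewer cells of a type and less RNA per cell cannot be told apart.

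The period contrast set perinatal against postnatal lead. limma called 0 of 10 members in each strain (0.0456% of all probe sets over the 3 strains). Of 30 tests 3 had an unadjusted p under 0.05 (10%), against 8.46% over all probe sets. In Fischer rats Camk2d was 0.34 ± 0.08 lower after perinatal than after postnatal exposure (-0.34; adjusted p = 0.190, limma). The medians of 8 Fischer animals each were 9.78 after perinatal 250 ppm, 9.53 after perinatal 750 ppm, 9.92 after postnatal 250 ppm and 10.20 after postnatal 750 ppm, with controls at 9.75. Without 1 perinatal 750 ppm female (replicate 3, level 10.17) the contrast was -0.39 and passed the threshold (adjusted p = 0.0367). Of the 40 fits that left out 1 Fischer animal, only this 1 called a member. That animal also stood apart from the other 3 of its group for Camk2d. In Long Evans and Sprague Dawley the Camk2d contrast was -0.08 ± 0.10 and -0.04 ± 0.08.

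The dose contrast set 750 against 250 ppm, and limma called 0 of 10 members in each strain (0.0913% of all probe sets over the 3 strains). Of 30 tests 3 had an unadjusted p under 0.05 (10%), against 7.27% over all probe sets. The smallest adjusted p was that of Camk2b in Fischer rats, at -0.07 ± 0.02 (adjusted p = 0.215). Camk4, the nuclear CaM kinase that phosphorylates the transcription factor CREB, differed by -0.11 ± 0.04 in Long Evans (adjusted p = 0.398).

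Camk4 had the smallest p of the strain means, in Long Evans. It ranged from 9.56 to 10.11 (median 9.85) in 32 exposed Long Evans animals, against 9.60 to 9.88 (median 9.76) in 8 controls, so the controls lay inside the exposed range. The mean effect was 0.09 ± 0.04 (adjusted p = 0.596, limma) and was not called. Without the arrays against their sex label, 3 of them Long Evans controls, it was 0.14 ± 0.05 (adjusted p = 0.457), also not called. The medians were 9.91 after perinatal 250 ppm, 9.86 after perinatal 750 ppm, 9.89 after postnatal 250 ppm and 9.77 after postnatal 750 ppm. The mean of the oligodendrocyte markers ranged from 11.39 to 11.73 (median 11.55) in the same exposed animals, against 11.34 to 11.49 (median 11.39) in controls. Of its 6 probe sets 4 were called higher and 0 lower, beside 0.195% of all probe sets called. Across the arrays of all 3 strains Camk4 and this list had r = 0.449, with strain-by-set means removed. The part of these markers in the Camk4 values was not tested.

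Sex did not call a member either. Between females and males limma called 0 of 10 in each strain (0.133% of all probe sets over the 3 strains). An unadjusted p under 0.05 was reached in 0 of 30 tests, against 12.8% over all probe sets. The sex difference of the mean lead effect called no member either, where limma called 0.00114% of all probe sets. Nor did the strain differences of the mean lead effect, where it called 0.149%. In each of these 2 families 0 of 30 member tests had an unadjusted p under 0.05, against 3.98% and 5.67% over all probe sets. The largest strain difference of the lead effect among members was that of Camk2d, -0.18 ± 0.15 between Long Evans and Fischer (adjusted p = 0.906).

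Strain separated several members among control animals. Between Long Evans and Fischer controls limma called 4 of 10 members (32.1% of all probe sets), between Sprague Dawley and Fischer 3 of 10 (16%), and between Long Evans and Sprague Dawley 6 of 10 (31.2%). In the same order 5, 4 and 7 had an unadjusted p under 0.05, against 40.6%, 28.3% and 40.7% over all probe sets. With 10 probe sets, these shares are descriptions beside the background.

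Camk2d differed most. It ranged from 10.24 to 10.54 (median 10.43) in 7 Sprague Dawley controls, against 9.50 to 9.94 (median 9.75) in 8 Fischer controls, with no overlap. Sprague Dawley controls were higher by 0.66 ± 0.14 (SE; adjusted p = 1.61e-04, limma). Long Evans controls ranged from 9.80 to 10.25 (median 9.94), just reaching the lowest Sprague Dawley values, and were lower than Sprague Dawley by -0.44 ± 0.14 (adjusted p = 0.00932). The Long Evans minus Fischer difference was 0.22 ± 0.13 and was not called (adjusted p = 0.195). Over all groups the Sprague Dawley minus Fischer difference was 0.59 ± 0.06. Dentate gyrus markers went the other way. Their mean ranged from 8.04 to 8.23 in Sprague Dawley controls, against 8.29 to 8.49 in Fischer controls. Of their 3 probe sets 2 were called lower, beside 16% of all probe sets. In the same pair 1 of 4 CA3 probe sets was called lower. None was called among the 2 thalamus and 5 striatum probe sets. Between Long Evans and Sprague Dawley controls 0 of 3 dentate gyrus probe sets were called. The part of these markers in the Camk2d differences was not tested.

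Prkca was lowest in Sprague Dawley. It ranged from 11.49 to 11.74 (median 11.61) in Sprague Dawley controls, against 11.71 to 11.82 (median 11.76) in Fischer controls, and only the highest Sprague Dawley animal reached the Fischer range. The difference was -0.15 ± 0.03 (adjusted p = 4.16e-04, limma). Long Evans controls (11.72 to 11.82, median 11.76) were 0.16 ± 0.03 above Sprague Dawley controls (adjusted p = 1.38e-04) and differed from Fischer controls by 0.00 ± 0.03. The mean of 6 principal neuron probe sets ranged from 12.08 to 12.17 in Sprague Dawley controls, against 12.18 to 12.31 in Fischer and 12.25 to 12.35 in Long Evans controls. Of these 6, 5 were called lower in Sprague Dawley than in Fischer, beside 16% of all probe sets called. Their part in the Prkca difference was not tested. Prkcb, the beta isoform, was not called in controls, with the largest difference at -0.06 ± 0.03 between Long Evans and Sprague Dawley (adjusted p = 0.0624). That difference passed the threshold when dim probe sets were left out (adjusted p = 0.0452), and without Long Evans female 4 or Sprague Dawley female 1 or 3 (-0.07, adjusted p from 0.0412 to 0.0429).

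Among the other kinases the strain differences were small. Camk2a was lower in Long Evans than in Fischer controls by -0.06 ± 0.02 (adjusted p = 0.00794, or 0.0681 without the label-number block), and lower than in Sprague Dawley by -0.05 ± 0.02 (adjusted p = 0.0385). The second call was lost in 8 of 23 fits that left out 1 control animal (Long Evans male 1, 2 or 3 or female 2 or 3, Sprague Dawley male 2 or 3 or female 4), with the difference between -0.06 and -0.05 and an adjusted p of up to 0.0970. Camk4 ranged from 9.60 to 9.88 in Long Evans controls, against 9.81 to 10.02 in Sprague Dawley controls, and was lower by -0.19 ± 0.05 (adjusted p = 0.00482). That difference was -0.14 ± 0.06 within upper label numbers (adjusted p = 0.151) and -0.24 ± 0.08 within lower ones (adjusted p = 0.0353). Camk2b was not called in any pair of strains.

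Of the calcineurin subunits, Ppp3r1, which encodes the calcium-binding regulatory subunit B, differed most. Its brighter probe set (10774310) ranged from 10.47 to 10.65 (median 10.55) in Long Evans controls, against 10.62 to 10.99 (median 10.80) in Fischer controls, and was lower by -0.24 ± 0.04 (adjusted p = 7.91e-08, limma). Against Sprague Dawley controls (10.59 to 10.92, median 10.66) it was lower by -0.17 ± 0.04 (adjusted p = 2.26e-04). The dimmer probe set (10908218) gave -0.30 ± 0.05 (adjusted p = 8.39e-07) and -0.13 ± 0.05 (adjusted p = 0.0455) for the same pairs. It was also lower in Sprague Dawley than in Fischer controls by -0.17 ± 0.05 (adjusted p = 0.0164, or 0.0863 without the block). Without the arrays against their sex label the last 2 differences were -0.11 (adjusted p = 0.200) and -0.15 (adjusted p = 0.0545). The Long Evans minus Sprague Dawley call of this probe set was also lost in 12 of 23 fits that left out 1 control animal (adjusted p up to 0.129): Long Evans male 1, 3 or 4 or female 1, 2 or 3, or Sprague Dawley male 1, 2 or 3 or female 1, 3 or 4. The Sprague Dawley minus Fischer call was lost without Sprague Dawley male 1 or female 2 (adjusted p up to 0.0530). Ppp3ca was lower in Long Evans than in Fischer controls by -0.07 ± 0.03 (adjusted p = 0.0298). This call was lost in 5 of 23 fits that left out 1 control animal (Long Evans male 1 or 2 or female 2, Fischer male 3 or female 2), with the difference between -0.09 and -0.06 and an adjusted p of up to 0.0973. Ppp3cb, the other catalytic subunit among the members, was not called in any pair of strains. Astrocyte markers were also lower in Long Evans controls. The mean of 6 probe sets ranged from 11.32 to 11.43 there, against 11.40 to 11.65 in Fischer and 11.46 to 11.63 in Sprague Dawley controls. Of these 6, 4 were called lower in Long Evans in each pair, beside 32.1% (Fischer) and 31.2% (Sprague Dawley) of all probe sets. Endothelium markers were lower in Long Evans too, with 2 of 5 probe sets called lower against Fischer and 3 of 5 against Sprague Dawley. Between Sprague Dawley and Fischer controls, where the dimmer Ppp3r1 probe set was called lower, 0 of 6 astrocyte probe sets were called. Of the 5 endothelium probe sets 1 was called higher and 1 lower there. The part of either list in the Ppp3r1 differences was not tested.

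**Figure D3:**
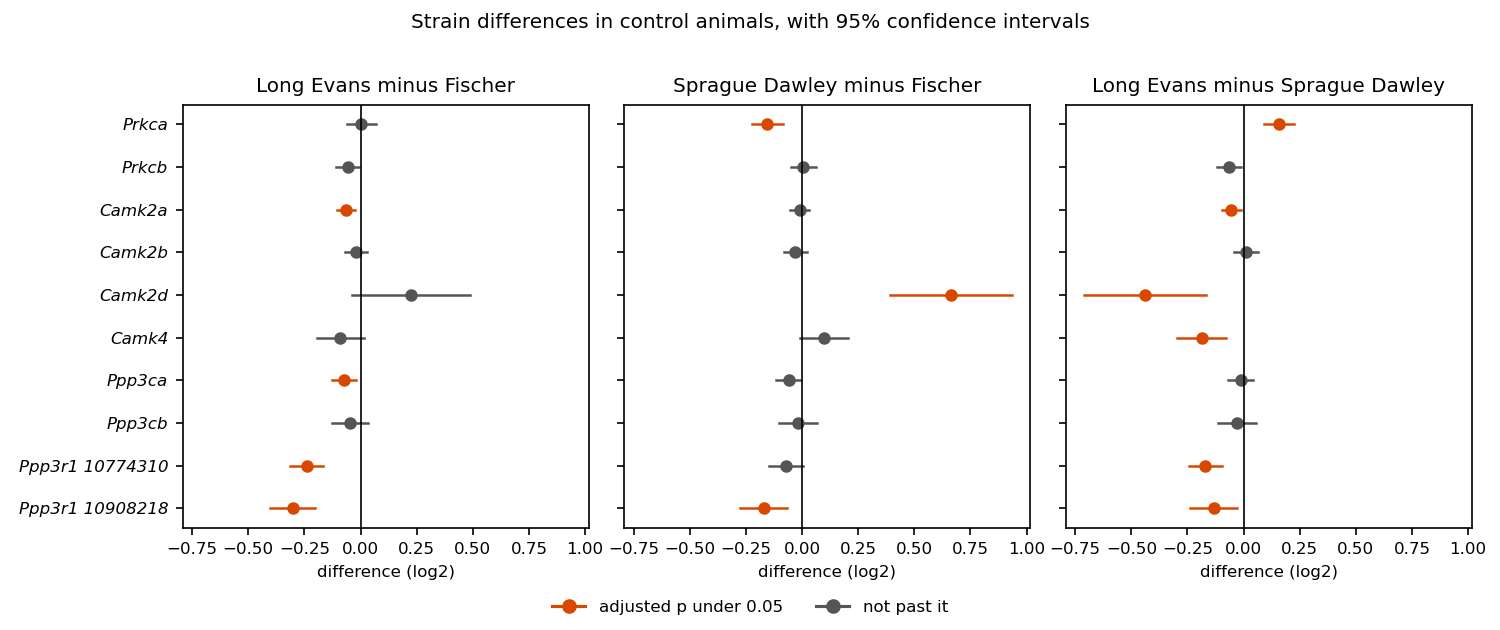
Strain differences of the 10 member probe sets in control animals (log2, horizontal axis), with 95% confidence intervals, for the 3 pairs of strains. Orange marks an adjusted p under 0.05. Camk2d has the largest difference, 0.66 between Sprague Dawley and Fischer.

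Over all groups, exposed and control, the same fit called 5 of 10 members between Long Evans and Fischer (64.3% of all probe sets), 6 of 10 between Sprague Dawley and Fischer (46%) and 7 of 10 between Long Evans and Sprague Dawley (65.6%). The members' shares were thus near the background of the array. Calls that the controls alone did not give were those of Prkcb in Long Evans against Fischer (-0.04 ± 0.01) and Sprague Dawley (-0.04 ± 0.01), and of Camk2a (-0.03 ± 0.01), Camk4 (0.13 ± 0.02) and Ppp3ca (-0.06 ± 0.01) in Sprague Dawley against Fischer. Camk4, whose controls differed by 0.10 ± 0.05, ranged from 9.80 to 10.21 in 32 exposed Sprague Dawley animals, against 9.65 to 10.04 in 32 exposed Fischer animals.

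The label-number sets moved Ppp3r1 in opposite directions in Fischer and Sprague Dawley rats. In Fischer the brighter probe set ranged from 10.73 to 10.99 (median 10.87) in 20 animals with upper numbers, against 10.54 to 10.84 (median 10.66) in 20 with lower numbers, a difference of 0.21 ± 0.02 (adjusted p = 1.96e-09, limma). In Sprague Dawley it ranged from 10.51 to 10.78 (median 10.62) in 20 animals with upper numbers, against 10.60 to 10.94 (median 10.84) in 19 with lower numbers, a difference of -0.19 ± 0.03 (adjusted p = 1.05e-05). The dimmer probe set gave 0.22 ± 0.03 and -0.19 ± 0.03 in these strains. In Long Evans the brighter one differed by -0.02 ± 0.02. The strain difference of the set effect was not tested. limma called 5 of 10 members in Fischer (60.9% of all probe sets), 0 of 10 in Long Evans (0.0993%) and 4 of 10 in Sprague Dawley (18.9%). In Long Evans 2 of 10 had an unadjusted p under 0.05, against 9.56% over all probe sets. The other Fischer calls were Camk2a (0.10 ± 0.02), Camk2b (0.06 ± 0.02) and Ppp3cb (0.14 ± 0.03). The other Sprague Dawley calls were Prkca (-0.08 ± 0.03) and Camk2b (-0.06 ± 0.02).

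**Figure D4:**
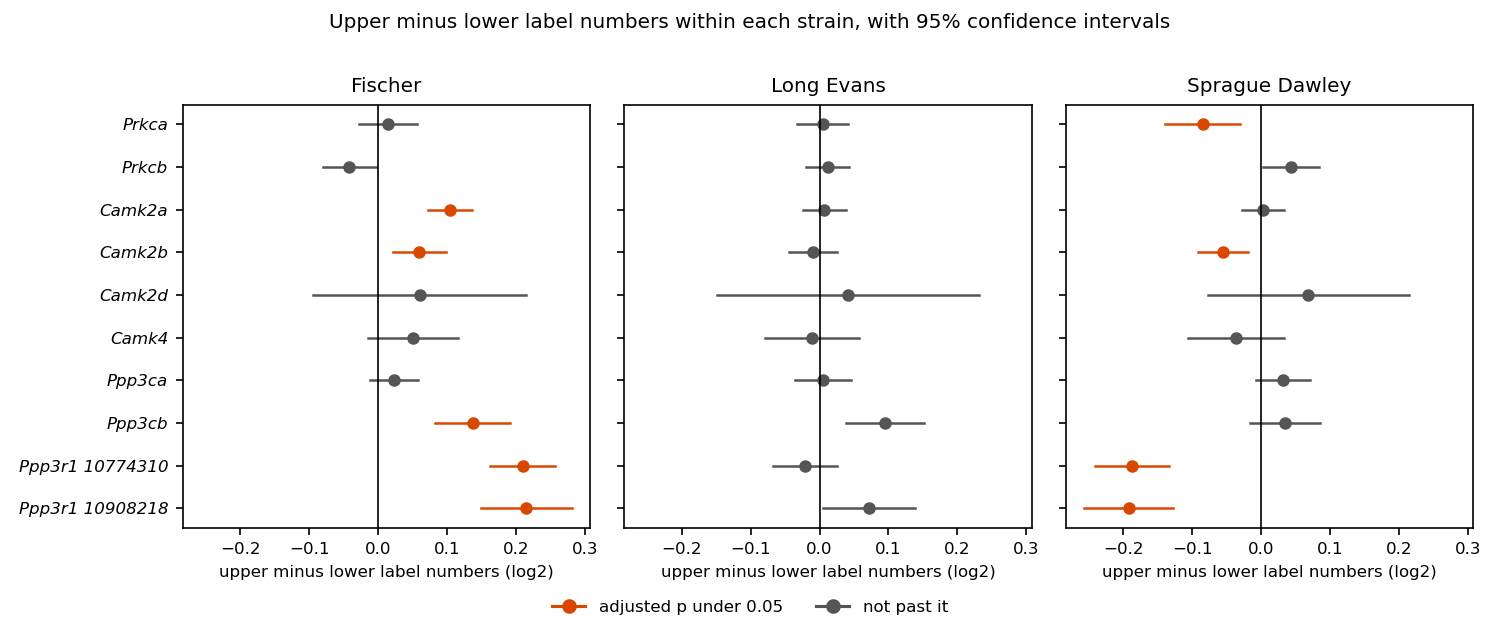
Difference between upper and lower label numbers within each strain (log2, horizontal axis) for the 10 member probe sets, with 95% confidence intervals. Orange marks an adjusted p under 0.05. Both Ppp3r1 probe sets are near 0.21 in Fischer and near -0.19 in Sprague Dawley.

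The strain differences of Ppp3r1 therefore changed with the set compared. Within upper numbers the brighter probe set was lower in Sprague Dawley than in Fischer controls by -0.26 ± 0.05 (adjusted p = 2.60e-04), and within lower numbers it was higher by 0.13 ± 0.07 (adjusted p = 0.199). The Long Evans minus Fischer difference was -0.36 ± 0.05 within upper numbers (adjusted p = 6.85e-07) and -0.12 ± 0.06 within lower numbers (adjusted p = 0.211). The Long Evans minus Sprague Dawley difference was -0.10 ± 0.05 within upper numbers (adjusted p = 0.176) and -0.25 ± 0.07 within lower numbers (adjusted p = 0.00766). For the dimmer probe set the last pair gave -0.01 ± 0.06 within upper numbers (adjusted p = 0.928) and -0.24 ± 0.08 within lower numbers (adjusted p = 0.0378). Astrocyte markers moved with the sets. Their mean ranged from 11.55 to 11.69 in Fischer animals with upper numbers, against 11.36 to 11.46 with lower numbers. All 6 of 6 probe sets were called higher, beside 60.9% of all probe sets called. Other lists were called there too. Of dentate gyrus 3 of 3, of CA1 4 of 4 and of inhibitory neurons 5 of 5 probe sets were called, each list in both directions. Of endothelium 4 of 5 were called lower. In Sprague Dawley the astrocyte mean ranged from 11.43 to 11.64 with upper numbers, against 11.48 to 11.65 with lower numbers. Of the 6 astrocyte probe sets 4 were called lower, beside 18.9% of all probe sets. The part of any marker list in the Ppp3r1 values was not tested. For Camk2d and Prkca the direction was the same within both sets. The Camk2d difference between Sprague Dawley and Fischer controls was 0.68 ± 0.17 within upper numbers (adjusted p = 0.00441) and 0.64 ± 0.19 within lower numbers (adjusted p = 0.0193). Between Long Evans and Sprague Dawley controls it was -0.43 ± 0.17 within upper numbers (adjusted p = 0.0916) and -0.44 ± 0.19 within lower numbers (adjusted p = 0.0908), called in neither. That of Prkca was -0.17 ± 0.05 within upper numbers (adjusted p = 0.0108) and -0.15 ± 0.06 within lower numbers (adjusted p = 0.0683).

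Within strain and label-number set, the members did not all vary together. Correlations are given as descriptions over the arrays of all 40 Fischer, 40 Long Evans and 39 Sprague Dawley animals, which share tissue, dissection and array processing. The CaMKII subunits Camk2a and Camk2b varied together (r = 0.631), and both varied against Camk2d (r = -0.443 and -0.498). Prkca varied with Camk2b (r = 0.527) and Ppp3ca (r = 0.509), and Prkcb with Camk4 (r = 0.495). The 2 probe sets of Ppp3r1 had r = 0.522 over all arrays but 0.137 in Long Evans alone.

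The probe sets most like each member were taken as those with the highest r. For Camk2d these were the homeobox gene Meis2 (r = 0.879), the G protein regulator Rgs4 (0.841) and the synaptic organiser Cbln4 (0.837), and in each strain r was at least 0.799 for these 3. For Ppp3ca the first was the AMPA receptor subunit Gria1 (0.731), for Prkca the sodium channel subunit Scn3b (0.722), for the brighter Ppp3r1 probe set the chaperone Dnajc10 (0.700) and for Camk2b the glycosyltransferase B3gat1 (0.678). For Camk2a it was the transcription factor Zbtb20 (0.655), for Camk4 the Wnt receptor Fzd3 (0.618), for Ppp3cb Mtch2 (0.572) and for Prkcb the potassium channel Kcnq3 (0.546). Against marker lists, Camk2d had r = -0.564 with dentate gyrus, -0.553 with CA3, 0.513 with the 2 thalamus probe sets and 0.503 with striatum. Prkca had r = 0.702 with principal neurons. None of the 5 neocortex markers had a probe set with 1 symbol, so 0 of 5 were measured.

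**Figure D5:**
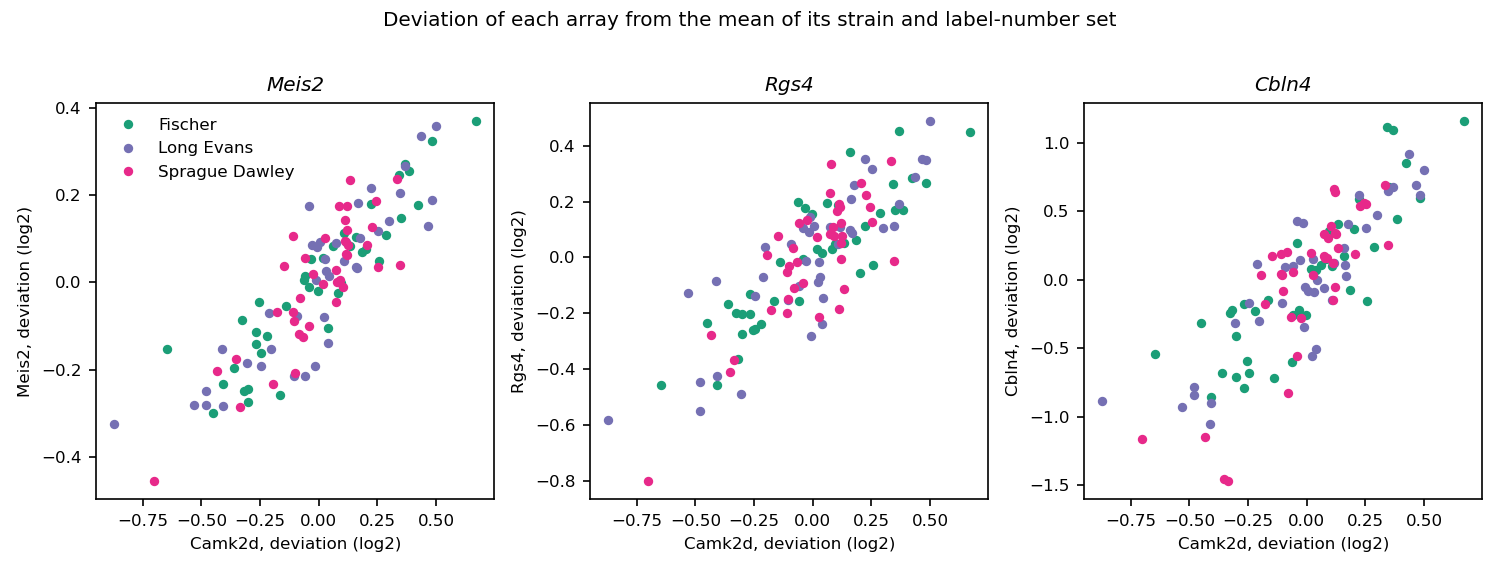
Deviation of Camk2d (log2, horizontal axis) against that of Meis2, Rgs4 and Cbln4 (log2, vertical axes), in the arrays of all animals, after the mean of each strain and label-number set was removed. Colours are strains. Arrays with more Camk2d had more of each of the 3 genes (r of 0.879, 0.841 and 0.837).

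In the Fischer arm where Camk2d was highest, Cbln4 ranged from 8.49 to 9.74 in 8 animals after postnatal 750 ppm, against 7.70 to 8.93 in 8 controls. Its difference was 0.89 (adjusted p = 0.145, limma, sexes pooled), and those of Meis2 and Rgs4 were 0.24 (adjusted p = 0.329) and 0.25 (adjusted p = 0.517). None was called. These genes were picked by their r with Camk2d over the same arrays, with differences between exposures left in. Their differences in this arm are therefore not separate observations from that of Camk2d.

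Other genes of calcium signalling, in 3 lists, were also tested for lead. limma called 0 of 21 probe sets of other kinases and phosphatase subunits, 0 of 19 of calcium sensors and regulators, and 0 of 17 of substrates and scaffolds in the 24 lead contrasts. In the Long Evans mean 1 of 21 kinase probe sets was called, beside 0.195% of all probe sets. It was Camkk2, which phosphorylates Camk4 and other CaM kinases, higher by 0.16 ± 0.04 (adjusted p = 0.0457, limma). Its mean lead effect was also higher in Long Evans than in Fischer, by 0.22 ± 0.05 (adjusted p = 0.0221). Long Evans controls, however, already stood below Fischer controls in Camkk2, at 9.97 against 10.19 (-0.22 ± 0.04, adjusted p = 3.81e-05). Exposed Long Evans animals stood at 10.13. Without the arrays against their sex label, 3 of them Long Evans controls, calls in the Long Evans mean fell from 57 to 17 probe sets. Camkk2 was not followed in that fit. Between Long Evans and Fischer controls, where 32.1% of all probe sets were called, 12 of the 21 kinase probe sets were called (2 higher, 10 lower), with a median of -0.08 against -0.01 over all probe sets. Of the sensors 11 of 19 were called (3 higher, 8 lower), among them calmodulin Calm2 at -0.46 and -0.30 in its 2 probe sets. Of the substrates 7 of 17 were called (6 higher, 1 lower), among them synapsin Syn1 at 0.33 and the scaffold Dlg4 at 0.20. Between the Fischer label-number sets 17 of 21 kinase, 14 of 19 sensor and 13 of 17 substrate probe sets were called, beside 60.9% of all probe sets, with Calm2 higher by 0.53, Camk1d by 0.53 and Camkk1 by 0.46 in upper numbers.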

How the data were processed

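The deposited values are log2 intensities per probe set, made by the authors with RMA and Partek per the submitters' processing notes. The tools' versions, background correction details and any batch correction are not given in the sources used here, so differences between labelled groups carry whatever was done before deposit. No value was missing among 29214 probe sets. Gene symbols came from the platform's annotation (15310 probe sets with 1 symbol) and were matched to GRCr8. The members and lists were chosen with earlier results of these data known. Every member was named whatever its result. For the other calcium genes up to 4 with the smallest p of a list holding a call were eligible, and for likeness the 3 highest r.

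Group means were fitted per strain with limma 3.58.1 (R 4.3.3), with label-number set as a centred block. Strain pairs came from 1 fit of all arrays. Tests were two-sided, with Benjamini-Hochberg adjustment over all probe sets within a contrast. Errors are standard errors. The number of arrays limits the precision. The fits were tested on simulated data. Alternatives were no block, 1 fit of all arrays, further quantile normalization, a filter at the 40th percentile, array weights, choroid plexus score as covariate, each label-number set alone, no arrays against their sex label, and each animal left out. Figures were drawn with matplotlib 3.10.9 in Python 3.11.15.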

Additional observations from a re-analysis of the deposited data

Results flagged for a closer look

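In 10 of 290 groups of 4 animals, taken over the members, 1 animal stood apart from the other 3 by more than Dixon's critical value. Chance gives about 1 in 20. Camk2d had 4 of these animals. Fischer male postnatal 750 ppm replicate 2 stood at 9.929, below 10.2 to 10.25 in the others. Fischer female perinatal 750 ppm replicate 3 stood at 10.17, above 9.425 to 9.551. Long Evans female postnatal 750 ppm replicate 4 stood at 10.01, above 9.891 to 9.901. Sprague Dawley male perinatal 250 ppm replicate 2 stood at 10.00, below 10.45 to 10.51.

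Fischer female perinatal 750 ppm replicate 4 was high for Prkca (11.90, others 11.74 to 11.76) and for Ppp3ca (13.09, others 12.93 to 12.94). Long Evans male control replicate 4, one of the arrays against its sex label, was high for Prkca (11.82, others 11.72 to 11.73) and for Camk2a (13.27, others 13.19 to 13.20). Prkcb was high in Sprague Dawley male perinatal 250 ppm replicate 3 (12.43, others 12.22 to 12.23). Camk4 was low in Fischer male postnatal 250 ppm replicate 2 (9.785, others 9.854 to 9.865).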

How the results depend on the processing

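The count of members called for lead stayed at 0 in each strain for the 24 contrasts, the strain means and the dose contrasts, under every alternative run. The period contrast in Fischer gave 0 to 1 over the fits that left out 1 animal, with 1 call in 1 of 40 fits. Counts of strain calls in controls moved with the label-number sets. Long Evans minus Fischer gave 0 members with only lower numbers (4 in all animals). Long Evans minus Sprague Dawley gave 3 without the block, 3 with only lower and 1 with only upper numbers (6 in all). Sprague Dawley minus Fischer gave 1 with only lower numbers (3 in all). Calls over all probe sets fell as well. In Long Evans minus Fischer they went from 9391 to 3657 with only lower numbers. In Long Evans minus Sprague Dawley they went from 9102 to 7148 without the block, 5836 with only lower and 4259 with only upper numbers. In Sprague Dawley minus Fischer they went from 4679 to 3965 with only lower numbers. Each number set alone holds fewer animals. Without the block 7 of 31 calls were lost, those of Camk2a in Long Evans minus Sprague Dawley (adjusted p = 0.154 in controls, 0.118 over all groups), in Long Evans minus Fischer controls (0.0681) and in Sprague Dawley minus Fischer over all groups (0.0855), and of Ppp3r1 in Long Evans minus Sprague Dawley controls (0.0531 and 0.247) and, for the dimmer probe set, Sprague Dawley minus Fischer controls (0.0863). The set difference in Sprague Dawley gave 2 member calls in females and 2 in males (4 in all). Over all probe sets it gave 1266 and 1797 calls, against 5527 in all. The dimmer Ppp3r1 probe set turned to 0.03368 in Sprague Dawley minus Fischer controls with only lower numbers (adjusted p = 0.845, limma). The cause was not tested. Leaving out 1 control animal, the member counts ranged from 3 to 4, from 4 to 7 and from 2 to 3 for these pairs of strains. Further quantile normalization ended 6 of 40 member calls, among them Ppp3ca in Long Evans minus Fischer controls (-0.04, adjusted p = 0.219) and Camk2a in Long Evans minus Sprague Dawley controls (-0.05, adjusted p = 0.0743). The others were Camk2a (-0.002013, adjusted p = 0.860) and Prkcb (-0.02, adjusted p = 0.146) in Long Evans minus Sprague Dawley over all groups, Camk2b between the Sprague Dawley sets (-0.03, adjusted p = 0.288) and the dimmer Ppp3r1 probe set in Long Evans minus Sprague Dawley controls (-0.08, adjusted p = 0.342). The same normalization also added calls (limma). These were Prkca (-0.05, adjusted p = 0.0237) and Prkcb (-0.05, 0.0169) between the Fischer sets, and Prkcb (0.08, 0.00169) and Ppp3ca (0.06, 0.0125) between the Sprague Dawley sets. Over all groups they were Prkca in Long Evans minus Fischer (0.04, 0.00914) and Ppp3ca in Long Evans minus Sprague Dawley (0.04, 0.00114). The fit of all arrays, array weights and the choroid plexus covariate ended 0 of 40. The first 2 of these added Prkcb between the Fischer sets.

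No paired analysis was possible because the animal numbers in the labels are not shared between groups. Leaving out exposed animals was not run for the strain pairs.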
